A study of Homo sapiens with 6 samples.

Results

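The genes described here encode receptors for viral or misplaced nucleic acids and the adaptors, kinases and enzymes that act with them. They were a list of 10, chosen by name with earlier results of these data known. A gene was taken as measured where a probe set carried its symbol, or its current symbol, and no other. Of the 10 genes, 8 were measured, among 13139 genes with such a probe set in the whole series, and each of the 8 had 1 probe set. TREX1 encodes an exonuclease that degrades cytosolic DNA, and SAMHD1 encodes an enzyme that breaks down deoxynucleotides. Neither was measured, because each appeared only in a probe set annotated with several gene symbols. RIGI and STING1 are the current names of DDX58 and TMEM173.

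Expression was profiled in HCT116, a human colon carcinoma line, on Affymetrix whole-transcript arrays. The wild-type cells were the parental line from a public repository, and the knockout cells were derived from HCT116 by removing both alleles of BRCA2, one after the other, through homologous recombination. BRCA2 itself encodes a mediator of homologous recombination. Neither genotype carried a treatment, and both were grown in the same serum-supplemented medium. Each genotype was measured on 3 arrays, called technical replicates in the labels, while the RNA is said to come from 3 frozen samples per genotype. Whether these were separate cultures is not stated, so all p-values measure only the spread between arrays, which may be technical. Each genotype was represented by 1 line as far as the labels say, and loss of BRCA2 cannot be told apart from other differences between the lines. The values of BRCA2 were not analysed here, so the genotype labels were not checked against the targeted gene.

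As background, cells read foreign or misplaced nucleic acid in separate compartments. TLR3 detects double-stranded RNA in endosomes. RIGI and IFIH1 are cytosolic helicases that bind viral-type RNA and signal through MAVS on mitochondria, whereas cytosolic DNA is read by CGAS, with IFI16 as a further DNA-binding sensor, and signals through STING1 on the endoplasmic reticulum. These routes meet at the related kinases TBK1 and IKBKE, which activate IRF3 and so switch on interferon genes. Several sensors are themselves induced by interferon, and promoters of such genes can carry the paired GAAA elements bound by interferon regulatory factors.

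Promoters of the 3 RNA sensors are shown because each of them holds such an element, before the start site in IFIH1 and RIGI and across it in TLR3. The sequences are from RefSeq on GRCh38.p14, run 5′ to 3′ on the gene's strand, and begin 250 bases before the annotated start. Capitals mark matches to GAAANNGAAA or GAAANGAAA on either strand, and overlapping matches merge into 1 run. The TLR3 stretch (chr4:186068906-186069161, plus strand) extends 6 bases past the start, to the end of its match. The others are chr2:162318685-162318934 (minus strand) for IFIH1 and chr9:32526197-32526446 (minus strand) for RIGI.
TLR3: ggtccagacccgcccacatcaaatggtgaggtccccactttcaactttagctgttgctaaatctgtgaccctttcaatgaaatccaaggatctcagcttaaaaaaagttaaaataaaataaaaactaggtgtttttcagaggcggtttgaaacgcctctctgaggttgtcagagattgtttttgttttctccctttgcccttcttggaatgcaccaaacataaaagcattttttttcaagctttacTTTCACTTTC
IFIH1: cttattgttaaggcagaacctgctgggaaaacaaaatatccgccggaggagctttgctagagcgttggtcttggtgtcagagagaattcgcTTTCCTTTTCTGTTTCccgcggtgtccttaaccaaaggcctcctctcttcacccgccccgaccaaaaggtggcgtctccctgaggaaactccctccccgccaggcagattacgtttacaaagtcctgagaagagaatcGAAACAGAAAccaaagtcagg
RIGI: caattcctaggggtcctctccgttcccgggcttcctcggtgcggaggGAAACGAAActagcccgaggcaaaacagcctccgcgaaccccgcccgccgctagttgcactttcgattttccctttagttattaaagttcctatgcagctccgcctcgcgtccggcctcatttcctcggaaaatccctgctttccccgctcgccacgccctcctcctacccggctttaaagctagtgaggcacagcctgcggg

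Motifs were searched over the whole promoter window, from 250 bases before to 50 bases after the start, in the 9 of 10 genes with an entry in the table; STING1 had none. TLR3 held GAAANNGAAA once, on the reverse strand, with its first base at position -4 from the start. IFIH1 held it 3 times, at -159 and -153 on the reverse strand, where the matches overlap, and at -21 on the forward strand. The shorter form GAAANGAAA, which was added to the search after the RIGI sequence had been read, occurred in RIGI at -203 and in IFI16, at -54 from the start of 1 of its 2 listed promoters. TTCNNNGAA, the palindromic element bound by STAT dimers, occurred only in TLR3 among these genes, at -178 and -50. Of 35116 promoters in the table, 3.57% held GAAANNGAAA, 3.12% held GAAANGAAA and 7.66% held TTCNNNGAA. A match is a description of the letters and not a measured binding site.

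The arrays were not alike as a whole. Wild-type array 1 and knockout array 2 had the highest medians, 7.71 and 7.80, against 7.36 to 7.48 on the other 4 arrays, and they deviated from their genotype means together (r = 0.489 over probe sets, as a description, since probe sets share each array). Across all probe sets, knockout array 2 held the highest of the knockout values in 52.8% and wild-type array 1 the highest of the wild-type values in 49.5%. For the 8 measured sensor genes this was so in 5 and in 6 cases. Each difference is therefore given over all 6 arrays, over the 4 arrays without these, and between the pair alone. Their part in each result was not tested beyond these values.

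Over all 6 arrays, 6 of the 8 genes were higher and 2 lower in the knockout, where 51.3% of the 19458 probe sets were higher. The median log2 difference of the 8 was 0.82, against 0.02 over all probe sets. None of the 8 passed an adjusted p of 0.05 in limma, where 0.570% of all probe sets passed. At an unadjusted p under 0.05 there were 3, all of them higher, where 6.92% of all probe sets were higher at that level. The same 3 genes, TLR3, STING1 and IKBKE, had knockout arrays that all lay above the wild-type arrays, which held for 12.0% of all probe sets. No gene of the 8 had all its knockout arrays below the wild type, against 7.70% of probe sets. With 8 genes, these shares are coarse.

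Over the 4 arrays without those of highest median, 6 of the 8 genes were again higher, where 49.1% of probe sets were, and their median difference was 0.48. None passed an adjusted p of 0.05 in limma, as against 0.0360% of probe sets. TLR3, RIGI, STING1 and IKBKE had knockout arrays above the wild type and IFI16 had them below, where 23.2% and 24.1% of probe sets separated in these directions.

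**Figure D1:**
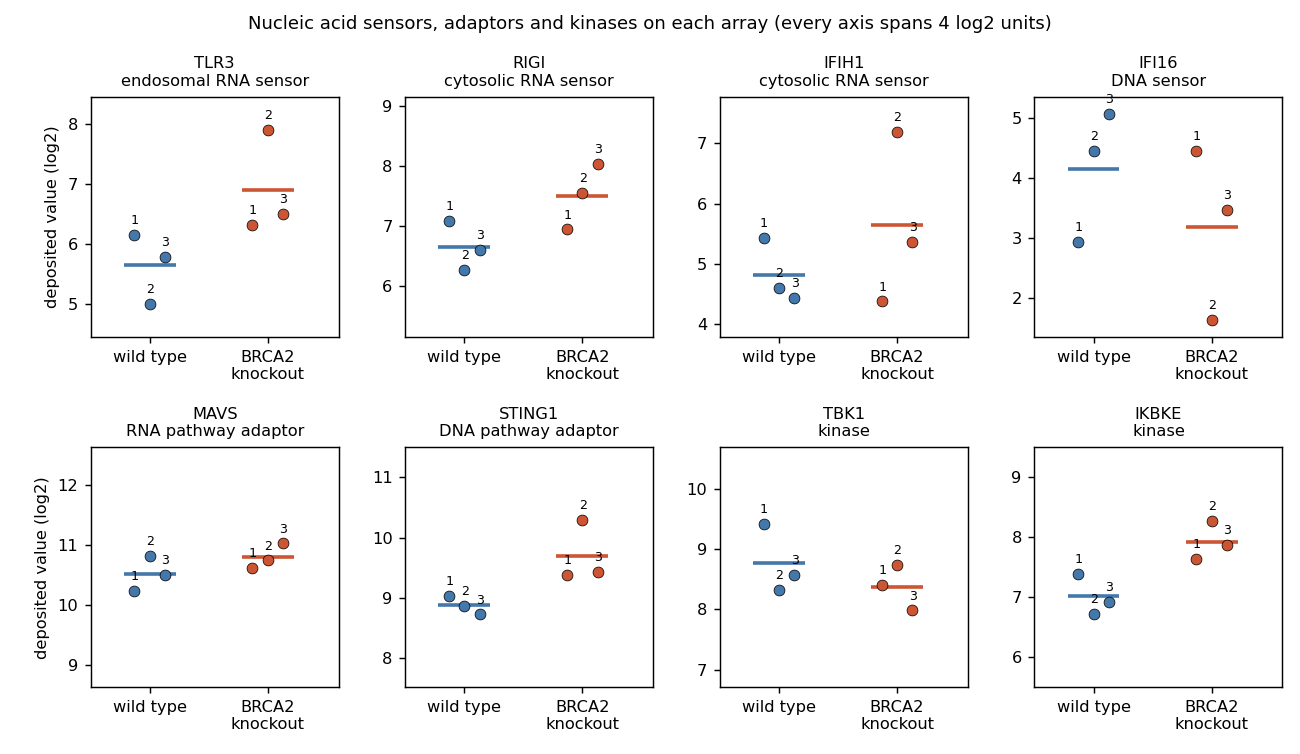
Deposited log2 value of each of the 8 measured genes on each array, by genotype. Points are arrays, numbered 1 to 3 within each genotype, bars are genotype means, and every vertical axis spans 4 log2 units; the genotypes separate for TLR3, STING1 and IKBKE, and knockout array 2 stands high for TLR3 and IFIH1 and low for IFI16.

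TLR3 had the largest difference of the 8 genes. In the order of the array numbers, its log2 values were 6.16, 5.01 and 5.79 in wild type and 6.32, 7.90 and 6.50 in knockout. The knockout arrays all lay above the wild type, though the closest pair, knockout array 1 and wild-type array 1, was only 0.17 apart, less than the range of 1.14 within the wild type. The means were 5.65 ± 0.58 and 6.91 ± 0.86 (SD, n = 3 arrays per genotype). The log2 difference of 1.26 ± 0.51 (SE, limma adjusted p = 0.383, 95% interval 0.07 to 2.45) corresponds to 2.39-fold. Knockout array 2 contributed much of it, since the difference was 0.76 without that array. Over the 4 arrays it was 1.01 ± 0.36, and knockout array 2 exceeded wild-type array 1 by 1.74.

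RIGI, the cytosolic sensor of RNA ends, had values of 7.09, 6.27 and 6.60 in wild type and 6.94, 7.55 and 8.03 in knockout. The genotypes overlapped by a single pair, because knockout array 1 lay below wild-type array 1, while the other knockout arrays lay above every wild-type array. The difference was 0.85 ± 0.37 (SE, limma adjusted p = 0.421, 95% interval -0.03 to 1.73), from 6.65 ± 0.41 to 7.51 ± 0.55 (SD, n = 3). Over the 4 arrays it was larger, 1.05 ± 0.45, or 2.07-fold, with no overlap, and between the pair of highest median it was 0.46. The genotypes also did not overlap for RIGI after median centring or quantile normalization. RIGI was thus among the genes whose difference was not smaller without the arrays of highest median.

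IFIH1, which encodes the sensor MDA5 of long double-stranded RNA, behaved differently across arrays. Its wild-type values were 5.43, 4.59 and 4.43, and its knockout values 4.37, 7.19 and 5.36. The lowest of the 6 values was on knockout array 1 and the highest on knockout array 2, a range of 2.81 within the knockout. The difference of 0.82 ± 0.70 (SE, limma adjusted p = 0.679) had a 95% interval from -0.83 to 2.47. It was 0.05 without knockout array 2 and 0.35 ± 0.41 over the 4 arrays, against 1.75 between the pair of highest median. A difference of the size seen in RIGI lies within this interval, as does 0.

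IFI16, a nuclear and cytosolic DNA-binding protein, was low on all arrays and was the only 1 of the 4 sensors among the 8 genes that was lower in the knockout. Its values were 2.94, 4.46 and 5.07 in wild type and 4.45, 1.65 and 3.48 in knockout. The genotypes overlapped, and the lowest value of each fell on its array of highest median, the opposite of IFIH1. The difference was -0.97 ± 0.81 (SE, limma adjusted p = 0.676, 95% interval -2.87 to 0.94), and it was -0.19 without knockout array 2. Over the 4 arrays it was -0.80 ± 0.45, with both knockout arrays below both wild-type arrays, though 4.45 and 4.46 were all but equal. With values under 4 set to 4, where such low values carry little information, it was -0.36.

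The adaptors of the RNA and DNA routes were both well measured, and their intervals were narrower than those of IFIH1 and IFI16. STING1 had values of 9.03, 8.86 and 8.72 in wild type and 9.38, 10.29 and 9.42 in knockout. All knockout arrays lay above all wild-type arrays, by at least 0.35, against a range of 0.31 within the wild type and of 0.91 within the knockout. The means were 8.87 ± 0.15 and 9.70 ± 0.51 (SD, n = 3), and the difference of 0.83 ± 0.33 (SE, limma adjusted p = 0.375, 95% interval 0.06 to 1.59) corresponds to 1.77-fold. It was 0.53 without knockout array 2, 0.61 ± 0.26 over the 4 arrays and 1.26 between the pair of highest median.

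MAVS, the mitochondrial adaptor of RIGI and IFIH1, had values of 10.23, 10.82 and 10.51 in wild type and 10.62, 10.74 and 11.03 in knockout. The genotypes overlapped, with wild-type array 2 above knockout arrays 1 and 2. The difference was 0.28 ± 0.28 (SE, limma adjusted p = 0.722, 95% interval -0.37 to 0.93), and 0.16 ± 0.31 over the 4 arrays. The interval leaves room for a difference as large as that of STING1.

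The kinases on which these routes converge differed in opposite directions. IKBKE, the inducible kinase of the pair, had values of 7.39, 6.72 and 6.92 in wild type and 7.63, 8.27 and 7.86 in knockout. Every knockout array lay above every wild-type array, with a gap of 0.24 at the closest. The means were 7.01 ± 0.34 and 7.92 ± 0.32 (SD, n = 3). The difference of 0.91 ± 0.31 (SE, limma adjusted p = 0.297, 95% interval 0.19 to 1.63) corresponds to 1.88-fold. It had the smallest p of the 8 genes, 0.0202 before adjustment, and was 0.92 ± 0.28 over the 4 arrays and 0.88 between the pair of highest median.

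TBK1, the constitutive kinase, had values of 9.42, 8.33 and 8.58 in wild type and 8.41, 8.73 and 7.98 in knockout. The genotypes overlapped, and wild-type array 1 was the highest of the 6. The difference of -0.40 ± 0.37 (SE, limma adjusted p = 0.708, 95% interval -1.28 to 0.48) was -0.08 without wild-type array 1. Over the 4 arrays it was -0.25 ± 0.30.

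**Figure D2:**
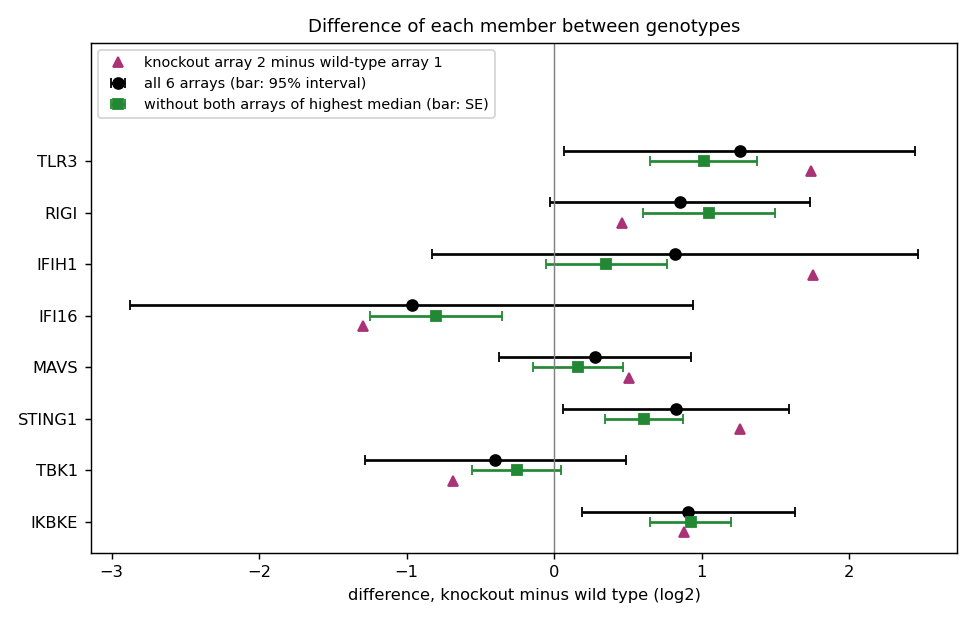
Log2 difference of each gene, knockout minus wild type, over all 6 arrays (circles, bars are 95% intervals), over the 4 arrays left without both arrays of highest median (squares, bars are SE), and between knockout array 2 and wild-type array 1 (triangles). All 3 values have the same sign for each gene, but each circle is a weighted mean of its square and triangle and adds no separate evidence. IKBKE lies between 0.88 and 0.92 in each, whereas IFIH1 runs from 0.35 to 1.75. With any 1 array left out, IKBKE runs from 0.74 to 1.10 and IFIH1 from 0.05 to 1.45.

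Within-array differences between related genes were also compared, since a shift common to a whole array cancels in them. IKBKE minus TBK1 was -2.03, -1.60 and -1.66 on the wild-type arrays and -0.78, -0.46 and -0.12 on the knockout arrays. The genotypes did not overlap, and the change of 1.31 was larger than the SD of 0.23 in wild type and 0.33 in knockout. STING1 minus MAVS was -1.21, -1.95 and -1.78 in wild type and -1.24, -0.45 and -1.60 in knockout, which overlap. RIGI minus IFIH1 was 1.65, 1.68 and 2.17 in wild type and 2.57, 0.36 and 2.68 in knockout, and the change of means was 0.03. The exact permutation test, two-sided, gave p = 0.1 for the kinases, the smallest that 3 against 3 arrays allow, 0.3 for the adaptors and 1 for the helicases (0.3, 0.45 and 1 adjusted over the 3 pairs).

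**Figure D3:**
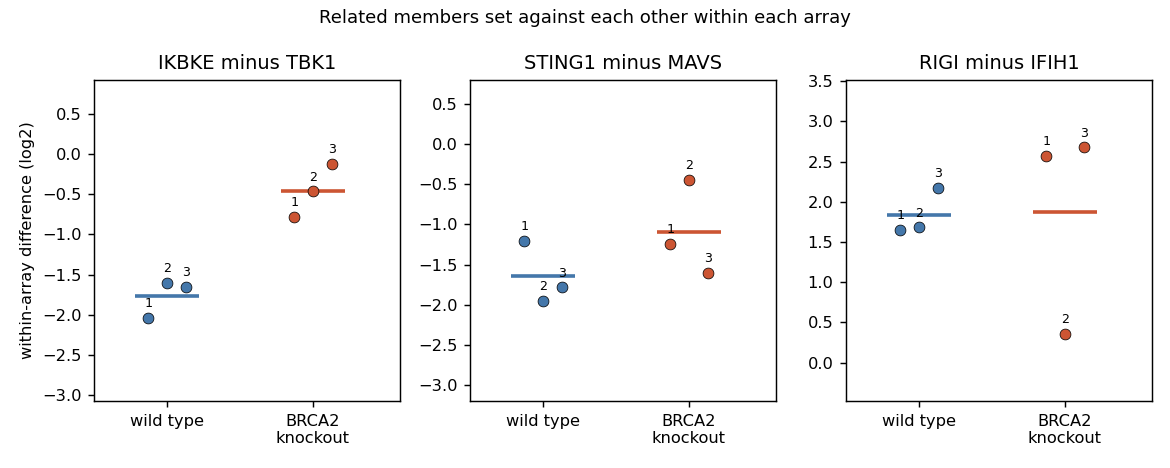
Log2 difference between related genes on the same array, by genotype, for the kinases, the adaptors and the RNA helicases. Points are arrays numbered 1 to 3 within each genotype and bars are means; the kinases separate by genotype, from -2.03 to -1.60 against -0.78 to -0.12, and the other pairs overlap.

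The neighbours of these genes on their chromosomes were examined for a shared shift, taking the 3 nearest measured genes on each side in the order of the GRCh38.p14 gene table. TLR3 lay among genes of which 1 of 6 was higher in the knockout (median difference -0.50), RIGI among genes of which 2 of 6 were higher (median -0.34) and IKBKE among genes of which 2 of 6 were higher (median -0.25). For STING1, IFIH1 and TBK1 it was 3 of 6 each (medians 0.11, -0.07 and -0.01), and for MAVS 2 of 6 (median -0.06). IFI16, the lowest of the group, lay among genes of which 5 of 6 were higher (median 0.53). Most neighbours of TLR3, RIGI, IKBKE, MAVS and IFI16 differed in the other direction, though the 95% intervals of RIGI, MAVS and IFI16 themselves include 0. A shift shared along a chromosome was not tested. Neighbours of the same gene could differ widely among themselves, from -1.63 to 2.82 for those of RIGI.

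Other genes of the pathway were taken from lists by role, and none of the 84 measured genes in the 5 lists of sensors, adaptors, kinases and factors, and nucleases and restraints passed the adjusted p in limma. At an unadjusted p under 0.05 there were 14, in either direction, where 12.2% of all probe sets were. Counts without overlap in these lists are to be read against the 12.0% of all probe sets that were higher and the 7.70% that were lower without overlap. Of 17 other RNA sensors, 8 were higher and 9 lower (median -0.07), and the arrays did not overlap for 3, all higher (12.0% of all probe sets). OASL, an interferon-induced relative of the oligoadenylate synthetases, was at 6.90, 6.56 and 6.64 in wild type and 7.89, 8.47 and 8.19 in knockout. Its difference of 1.48 ± 0.27 had a limma adjusted p of 0.0893. It was 0.0171 to 0.0447 in 5 alternatives, which called 174 to 778 probe sets in all, against 111 in the main fit. The adjusted p was 0.215 without both arrays of highest median and 0.147 to 0.368 with any 1 array left out. With array number as a block it was 0.575. DHX58, the regulatory relative of RIGI and IFIH1, differed by 0.58 ± 0.27 and the RNA helicase gene DDX21 by 0.43 ± 0.26. Of 10 other DNA sensors, 4 were higher and 6 lower (median -0.31), with no gene whose arrays did not overlap. CGAS, the enzyme that makes the second messenger read by STING1, was chosen for mention after its values were seen. It was at 6.43, 5.72 and 4.91 in wild type and 5.15, 4.89 and 4.20 in knockout, a difference of -0.94 ± 0.45 (limma adjusted p = 0.470) with overlapping arrays. It thus lay on the other side of 0 from its adaptor STING1, and neither passed the test.

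Of 20 genes for adaptors and ubiquitin ligases, 11 were higher and 9 lower (median 0.04), and the arrays did not overlap for 5 higher and 2 lower genes (12.0% and 7.70% of all probe sets). MYD88, the adaptor of most Toll-like receptors, differed by 0.71 ± 0.29, UNC93B1, which escorts nucleic acid-sensing Toll-like receptors including TLR3 to endosomes, by 0.71 ± 0.25, and OPTN, an adaptor that binds TBK1, by 0.71 ± 0.28. TRADD, a death-domain adaptor, was lower, at -0.88 ± 0.34. These 4 had limma adjusted p-values between 0.319 and 0.392.

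Among 16 kinases and transcription factors downstream of the sensors, 10 were higher and 6 lower (median 0.46), and 7 had knockout arrays above all wild-type arrays (12.0% of all probe sets). JUN, a subunit of AP-1, differed by 1.27 ± 0.31, IRF1, an interferon regulatory factor that is itself interferon-induced, by 1.25 ± 0.26, the NF-kB subunit gene RELB by 0.91 ± 0.29 and the coactivator gene CREBBP by 0.86 ± 0.24. Their limma adjusted p-values were 0.170, 0.125, 0.269 and 0.221. With a variance trend JUN (0.0150), IRF1 (0.0341) and CREBBP (0.0277) passed, and with array weights JUN (0.0277), IRF1 (0.0279) and RELB (0.0476). Of all 19458 probe sets, 396 passed with a variance trend and 778 with array weights, against 111 in the main fit. Those weights were 6.96 for wild-type array 3 and 0.4 to 1.04 for the others, so the wild-type level rested mostly on 1 array. Without both arrays of highest median the adjusted p-values of these genes lay between 0.234 and 0.355. IRF3, the factor that TBK1 and IKBKE phosphorylate, was likewise named after its values were seen. It was at 8.27, 8.75 and 8.50 in wild type and 9.06, 8.87 and 9.39 in knockout, a difference of 0.60 ± 0.28 (limma adjusted p = 0.449) with a gap of 0.12 between genotypes. IRF1 was at 8.23, 7.89 and 8.07 in wild type and 9.06, 9.51 and 9.36 in knockout, a gap that was wider than the range of either genotype.

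Of 21 nucleases and restraints, 16 were higher and 5 lower (median 0.23), and the arrays did not overlap for 4, all higher (12.0% of all probe sets). DUSP1, a phosphatase that restrains MAP kinases, differed by 1.63 ± 0.27 (limma adjusted p = 0.0660). Its adjusted p was 0.000808 to 0.0476 in 5 alternatives, but 0.201 without both arrays of highest median, 0.114 to 0.318 with any 1 array left out and 0.514 with array number as a block. ATG12, an autophagy protein gene, differed by 0.69 ± 0.26, the lysosomal nuclease gene DNASE2 by 0.45 ± 0.27 and the deubiquitinase gene OTUD5 by 0.37 ± 0.24. Only 3 of 20 listed interferon genes were measured, with differences between -0.26 and 0.20 and overlapping arrays.

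Of the genes that IRF3 can switch on early, 2 were called over all 6 arrays, IFIT2 and IFI44, and both rose (0.570% of all probe sets were called). The lists were not tested against each other, and the number called in this list was 0 to 2 over the alternatives. Of 11 measured, 9 were higher (median 0.42), 5 of them with arrays that did not overlap and 0 lower without overlap (12.0% and 7.70% of all probe sets). IFIT2, which encodes an RNA-binding protein, was at 5.71, 5.57 and 5.40 in wild type and 7.44, 7.15 and 7.45 in knockout (difference 1.79 ± 0.25, limma adjusted p = 0.0387). IFI44 rose by 3.24 ± 0.48 (limma adjusted p = 0.0459), from values of 1.65 to 2.09, and differed by 1.07 (adjusted p = 0.380) with values under 4 set to 4. IFIT3, IFIT1 and ISG15 differed by 1.52 ± 0.35, 1.27 ± 0.34 and 0.93 ± 0.28. Without both arrays of highest median the differences were 1.96 for IFIT2 and 2.66 for IFI44, and neither was called (adjusted p = 0.142 and 0.113). IFI44 was also not called with quantile normalization (0.0979), a variance trend (0.111) or no moderation (0.143), and neither gene was called with array number as a block (0.420 for IFIT2 and 0.286 for IFI44). With any 1 array left out the call of IFIT2 was lost (adjusted p between 0.0709 and 0.232), and so was that of IFI44, except without knockout array 2.

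**Figure D4:**
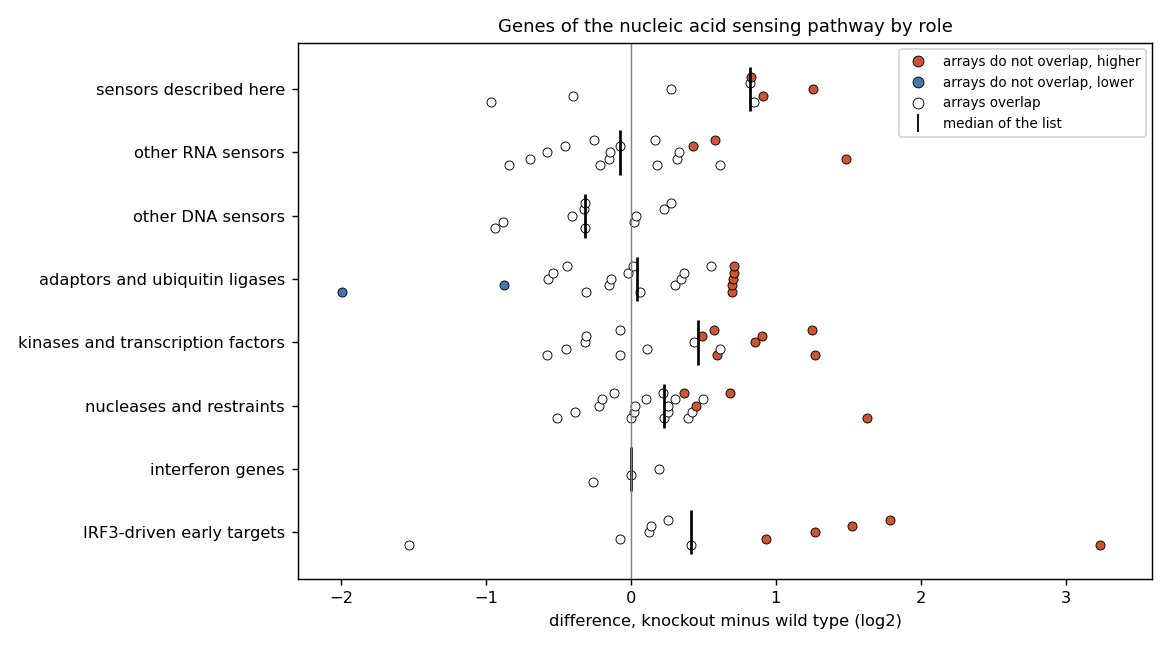
Log2 difference, knockout minus wild type, of each measured gene by role, with 1 point per gene. Filled points are genes whose arrays do not overlap between genotypes and bars are list medians; the medians run from -0.31 for other DNA sensors to 0.82 for the 8 genes described here.

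The label was checked against 14 colon epithelial markers, all of them measured. Their mean lay between 8.21 and 8.93 on the arrays, and single markers between 4.75 and 12.7. Of these, 13 were higher in the knockout and 1 lower (median 0.38), and 6 were higher without overlap (12.0% of all probe sets). Their summed log2 value ran from 115.0 to 119.2 in wild type and from 117.9 to 125.0 in knockout. Sensors such as IFI16, TLR3 and STING1 are also made by leukocytes and stromal cells, so markers of these were read as well. The samples themselves were cultures of a carcinoma line. Of 13 leukocyte markers, 10 were higher and 3 lower (median 0.42), and 2 were higher without overlap (12.0% of all probe sets). Single leukocyte markers lay between 3.6 and 8.9. Their summed log2 value ran from 75.8 to 84.2 in wild type and from 79.0 to 86.7 in knockout. Of 9 fibroblast and endothelial markers, 7 were higher and 2 lower (median 0.36), and 1 was higher without overlap (12.0% of all probe sets). Single markers of this list lay between 4.95 and 8.08. Their sums ran from 54.2 to 62.2 in wild type and from 55.9 to 64.4 in knockout. No marker of the 3 lists was called over all 6 arrays, where 0.570% of all probe sets were, and array values have no true zero. The leukocyte and the stromal lists were lowest on the arrays of highest median of each genotype, where IFIH1 was highest. The part of the 3 lists in the differences was not tested. In RNA from whole cultures, fewer cells of a kind and less RNA per cell cannot be told apart.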

How the data were processed

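The authors deposited 1 summarised value per probe set and array, used here as log2 values. For them the submitters' processing notes list RMA and R 2.11.1, with hg18 as the build, but no filter or further step. The base of the log2 scale was inferred from RMA and the range of the values. Array medians differ, so the summarised values do not share 1 distribution across arrays. Which normalization was applied before summarising cannot be read from these values.

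Names came from the platform's annotation table. Of 19458 probe sets, 13301 carried a single gene symbol, 2044 more than 1 and 4113 none, and only the first kind was named. Where a gene had several such probe sets, that with the highest mean was used. Genotypes were compared over all probe sets with limma 3.58.1 in R 4.3.3 (lmFit, eBayes, 1 factor, no filter), with Benjamini-Hochberg adjustment over all of them and a threshold of 0.05. The fit was tested on simulated data. With 3 arrays per genotype, precision is limited by their number.

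The 10 genes and the pathway lists were chosen with earlier results of these data known. Pathway genes named were those called, and up to 4 per list of largest difference among genes with a mean of at least 5 and no overlap between genotypes. Of the interferon gene and marker lists, only counts and called genes were to be named. CGAS and IRF3, from the pathway lists, fall outside the rule. Alternative settings comprised quantile normalization, median centring, removal of the dimmest 30%, a floor of 4, a variance trend, no moderation, array weights, a replicate block, leaving out each array, and leaving out both arrays of highest median. The array weights were 6.96 for wild-type array 3 and 0.4 to 1.04 for the others, so that setting leans on 1 wild-type array. The difference between the pair of highest median was added after seeing the data.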

Additional observations from a re-analysis of the deposited data

How the results depend on the processing

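No gene of the 8 was called under any alternative, and none changed direction, including between the pair of highest median. A variance trend, no moderation, the replicate block and removal of dim probe sets leave each difference as it was. Those settings could not have changed a direction. The lowest limma adjusted p was 0.0734, for IKBKE with array weights, a setting that leans on wild-type array 3. TLR3, STING1 and IKBKE also did not overlap after median centring and quantile normalization, the only alternatives that could have changed this; leaving out the dimmest 30% of probe sets removed TLR3, IFIH1 and IFI16 from the test. The number without overlap was 5 without both arrays of highest median, 4 of them higher and IFI16 lower. There, 23.2% of all probe sets were higher and 24.1% lower without overlap. With any 1 array left out the number was 3 to 5, and the 5 arose without wild-type array 1, again with IFI16 lower. The shares over all probe sets with 1 array left out are not given here. The median difference was 0.48 without both arrays of highest median, and 0.42 (without knockout array 2) to 1.02 with any 1 array left out. RIGI minus IFIH1 ran from -0.37 to 0.79 with any 1 array left out, and IKBKE minus TBK1 from 1.14 to 1.47. The number of probe sets called, 111 as deposited, was 175 after median centring, 174 after quantile normalization, 184 without the dimmest 30%, 169 with a floor of 4, 396 with a variance trend, 778 with array weights, 7 without both arrays of highest median and 24 to 63 with any 1 array left out. It was 3 with the replicate block. Same-numbered arrays correlated at -0.238, -0.427 and 0.058 in their deviations. Deviations within a genotype sum to 0, and wild-type array 1 and knockout array 2 deviated together. These correlations therefore cannot decide whether the numbers pair the arrays. The cause of these changes was not tested. No gene of the 8 had over 1 probe set, so averaging probe sets could not be tried.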
